A study of Mus musculus with 44 samples.

Results

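The α-globin, β-globin and Slc25a37 loci lie on 3 different chromosomes, and the contacts measured between them in erythroid cells are trans contacts, joints between restriction fragments of different chromosomes. The members are the fragments of 6 windows. For each of the 3 viewpoints, which are the promoters of these loci, all listed fragments were taken that lie within 1 Mb of the promoters of the other 2 loci. In mm9 coordinates the windows are chr11:31190000-33190000 (α-globin), chr7:109970000-111970000 (β-globin) and chr14:68903000-70903000 (Slc25a37). They hold 2572 fragment rows of the 1476745 rows in the 3 fixation tables, and the series has 1995123 rows in 7 tables. The α-globin viewpoint contributed 415 rows in the β-globin window and 550 in the Slc25a37 window. The β-globin viewpoint contributed 545 rows in the α-globin window and 523 in the Slc25a37 window, and the Slc25a37 viewpoint 321 rows in the α-globin window and 218 in the β-globin window.

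The cells were Ter-119+ erythroid cells, selected with antibody-coated beads from spleens of female C57BL/6 mice that had received phenylhydrazine, which destroys red cells and fills the spleen with erythroid precursors. They were fixed with 0, 0.5, 1, 2, 3, 4 or 5% formaldehyde, digested with DpnII and religated. There were 2 technical replicates per concentration, summed for the main tests, so p-values measure the spread between concentrations, not between animals. Only the edgeR fits over all 14 libraries, given near the end, also hold the spread between technical replicates. Unfixed cells had been broken in a Dounce homogeniser and were not centrifuged before digestion, so the 0% libraries differ from the fixed ones in handling as well as in fixation. All 3 loci were enriched from each library with 1 mix of capture oligonucleotides.

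The α-globin and β-globin genes encode the chains of adult haemoglobin, and Slc25a37 encodes mitoferrin-1, which carries iron into mitochondria for haem synthesis. All of them are expressed strongly in erythroid cells from promoters and distant enhancers that bind erythroid transcription factors such as GATA1 and KLF1. In 3C methods, fragments that are near each other in the nucleus become joined by ligation, but fragments that have come out of broken nuclei are also joined, at random, and such random joints are mostly between chromosomes. A trans contact is therefore measured against the density of interactions over the rest of the same chromosome, and against unfixed material.

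The globin promoters that served as viewpoints are shown first, because the recognition site of DpnII (GATC) decides where their fragments end. The sequences are the 250 bases upstream of the transcription start from RefSeq (GRCm38.p6), written on the strand of the gene. Capitals mark GATC, and the letters CACCC, the core of the box bound by KLF1.
Hba-a1: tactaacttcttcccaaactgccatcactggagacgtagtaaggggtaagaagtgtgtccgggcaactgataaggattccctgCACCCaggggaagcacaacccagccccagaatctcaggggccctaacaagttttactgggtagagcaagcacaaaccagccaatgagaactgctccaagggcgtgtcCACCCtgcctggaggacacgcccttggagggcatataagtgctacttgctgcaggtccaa
Hbb-bs: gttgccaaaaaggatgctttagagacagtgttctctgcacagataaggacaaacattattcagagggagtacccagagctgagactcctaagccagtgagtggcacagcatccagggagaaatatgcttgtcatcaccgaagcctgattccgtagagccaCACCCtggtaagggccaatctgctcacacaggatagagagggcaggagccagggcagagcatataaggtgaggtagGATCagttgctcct
Hbb-bt: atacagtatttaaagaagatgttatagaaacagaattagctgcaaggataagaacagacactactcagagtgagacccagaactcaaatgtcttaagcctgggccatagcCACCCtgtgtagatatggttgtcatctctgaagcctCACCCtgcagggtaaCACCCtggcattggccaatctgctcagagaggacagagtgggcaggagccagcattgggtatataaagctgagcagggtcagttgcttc
The printed stretches lie at chr11:32283422-32283671 on the plus strand (Hba-a1), chr7:103827929-103828178 on the minus strand (Hbb-bs) and chr7:103813924-103814173 on the minus strand (Hbb-bt). GATC occurs 1 time in Hbb-bs and 0 times in the others, and 41.9% of 32851 promoters of this length hold it. CACCC or its complement GGGTG was searched on both strands. CACCC occurs 2 times in Hba-a1, 1 time in Hbb-bs and 3 times in Hbb-bt, GGGTG 0 times, and 52.0% of the promoters hold either. The promoter of Hba-a2 (chr11:32296242-32296491) has the same letters as that of Hba-a1, shifted by 3 bases, over 297 compared bases with 0 mismatches. Of the 5 labelled genes, both α-globin genes matched by symbol. The labelled Hbb-b1, Hbb-b2 and the gene Slc25a37 did not match, and Hbb-bs and Hbb-bt are the adult β-globin genes that the RefSeq table lists.

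Depth set the precision of what follows. Libraries held 57467 to 168633 unique interactions from the α-globin viewpoint, 40235 to 155233 from β-globin and 18397 to 61802 from Slc25a37. Of these, 17954 to 121468, 14381 to 114405 and 5396 to 54626 were in trans. Interactions in cis, with the viewpoint's own chromosome, made up 4.36% to 6.25% of an unfixed library and 23.5% to 74.8% of a fixed one. The unfixed libraries therefore hold the most trans interactions, and raw counts in trans fall with fixation. The values below are densities relative to the rest of the same chromosome or to all trans interactions.

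Cross-capture was examined before the contacts. If oligonucleotides for one locus had pulled down the promoters of another, joints between 2 captured promoters would pile up at the captured fragments. Each viewpoint's own table has gaps at its captured promoters, at chr11:32182317-32184781 and chr11:32194990-32197598 for α-globin, at chr7:110961283-110963273 and chr7:110975292-110977138 for β-globin, and at chr14:69902161-69904393 for Slc25a37. Inside these gaps the tables of the other viewpoints also listed 0 fragments and 0 interactions. No joint between 2 captured promoters is therefore counted in these tables, and contact between the promoters themselves was not measurable here. With 1 kb added to each side of the gaps, the 14 libraries together held 6 interactions from α-globin with β-globin and 5 with Slc25a37. They held 17 from β-globin with α-globin and 2 with Slc25a37, and 3 and 2 from Slc25a37 with α-globin and β-globin. Of all these, 1 interaction came from an unfixed library, and no library held more than 3 at any target. Per kb of these added stretches, gaps not counted, the 17 from β-globin at α-globin were denser than the rest of the 100 kb on each side. That rest held 237 interactions in 0.191 Mb. The 5 from α-globin at Slc25a37 (193 in 0.196 Mb) and the 6 at β-globin (207 in 0.192 Mb) were also denser. So were the 3 from Slc25a37 at α-globin (68 in 0.191 Mb) and, slightly, the 2 at β-globin (80 in 0.192 Mb). The 2 from β-globin at Slc25a37 were about level (195 in 0.196 Mb). Whether cross-capture contributes to these few interactions was not tested. These stretches were left out of all densities.

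Over whole windows of 2 Mb, trans contacts with the other loci were modestly above the rest of the chromosome, most at Slc25a37. From α-globin, the 12 fixed libraries held 463 interactions in the β-globin window, 1.12-fold the density of the rest of chromosome 7 (95% interval from an exact binomial split 1.02 to 1.23). They held 591 in the Slc25a37 window, 1.64-fold the rest of chromosome 14 (1.51 to 1.78). From β-globin there were 596 in the α-globin window (1.26-fold, 1.16 to 1.37) and 607 in the Slc25a37 window (1.85-fold, 1.71 to 2.01). From Slc25a37 there were 242 in the α-globin window (1.21-fold, 1.06 to 1.37) and 166 in the β-globin window (1.11-fold, 0.946 to 1.29). These intervals cover counting error only, and they treat interactions as independent. Within a library, the mean number of trans interactions on the fragment of an interaction, itself included, was 1.50 to 1.69 from α-globin. It was 1.54 to 1.71 from β-globin and 1.03 to 1.16 from Slc25a37. The intervals here and below are therefore too narrow, most for the globin viewpoints. Intervals at the Slc25a37 window lie above those at the globin windows, and that of the last pair includes no difference.

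The unfixed libraries gave the background for these values. The Slc25a37 window held 1.27-fold the density of its chromosome from α-globin (1.11 to 1.45) and 1.33-fold from β-globin (1.16 to 1.51) without any fixation. The other windows lay between 0.944-fold and 1.19-fold, and each of their intervals included 1. Summed over the 2 unfixed libraries, the Slc25a37 window was thus already above its chromosome, but the libraries differed. From α-globin its log2 density over the chromosome was 0.52 in replicate 1 (133 interactions) and 0.12 in replicate 2 (87). From β-globin it was 0.65 (136) and 0.12 (94), so most of the excess came from replicate 1.

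Among all 2 Mb windows of their chromosomes, only the Slc25a37 window from β-globin lay above the 95th percentile in fixed libraries (304 interactions per Mb against 293). By density in the fixed libraries the β-globin window ranked 23 of 74 from α-globin and 25 of 74 from Slc25a37. The α-globin window ranked 15 of 59 from β-globin and 17 of 59 from Slc25a37, and the Slc25a37 window ranked 6 of 60 from α-globin and 3 of 60 from β-globin. The members of 4 of the 6 windows were above the rest of their chromosome at all 6 fixed concentrations, the exceptions being the β-globin window from α-globin (5 of 6) and from Slc25a37 (3 of 6). The share of all 2 Mb windows that met this criterion was 23% on chromosome 7 and 23.3% on chromosome 14 from α-globin. It was 25.4% on chromosome 11 and 25% on chromosome 14 from β-globin, and 25.4% on chromosome 11 and 21.6% on chromosome 7 from Slc25a37. The members' count of 4 of 6 was above these shares, which lay between 21.6% and 25.4%. The 6 windows are 3 targets seen from 2 viewpoints each, and the difference was not tested.

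Close to the target promoters the picture was different. Within 100 kb of the target promoters, all 6 windows held a concentration of interactions in fixed libraries, 3.02-fold to 5.20-fold the density of the rest of the chromosome. From α-globin the 12 fixed libraries held 189 interactions within 100 kb of the β-globin promoters (4.74-fold, 95% interval 4.08 to 5.46) and 162 within 100 kb of Slc25a37 (4.59-fold, 3.90 to 5.35). From β-globin they held 217 at α-globin (4.80-fold, 4.18 to 5.48) and 165 at Slc25a37 (5.14-fold, 4.38 to 5.99). From Slc25a37 they held 58 at α-globin (3.02-fold, 2.30 to 3.91) and 75 at β-globin (5.20-fold, 4.08 to 6.52).

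In unfixed libraries these stretches were near the level of their chromosome at both globin loci. The same 100 kb held 18 interactions from α-globin at β-globin (1.01-fold, 0.599 to 1.60) and 20 from β-globin at α-globin (0.968-fold, 0.591 to 1.50). From Slc25a37 they held 10 at α-globin (1.11-fold, 0.533 to 2.05) and 5 at β-globin (0.620-fold, 0.201 to 1.45). The Slc25a37 target again stood above its chromosome without fixation, with 31 interactions from α-globin (1.83-fold, 1.24 to 2.60) and 30 from β-globin (1.77-fold, 1.19 to 2.52).

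The remainder of each window was near or below the level of the chromosome at the globin targets. In fixed libraries it held 0.733-fold the density of the chromosome at β-globin from α-globin and 0.673-fold from Slc25a37. At α-globin it held 0.889-fold from β-globin and 1.02-fold from Slc25a37. At Slc25a37 it held 1.32-fold from α-globin and 1.50-fold from β-globin. Averaged over the remainder, the density around Slc25a37 was thus above that of its chromosome, and around the globin promoters it was at most 1.02-fold.

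**Figure D1:**
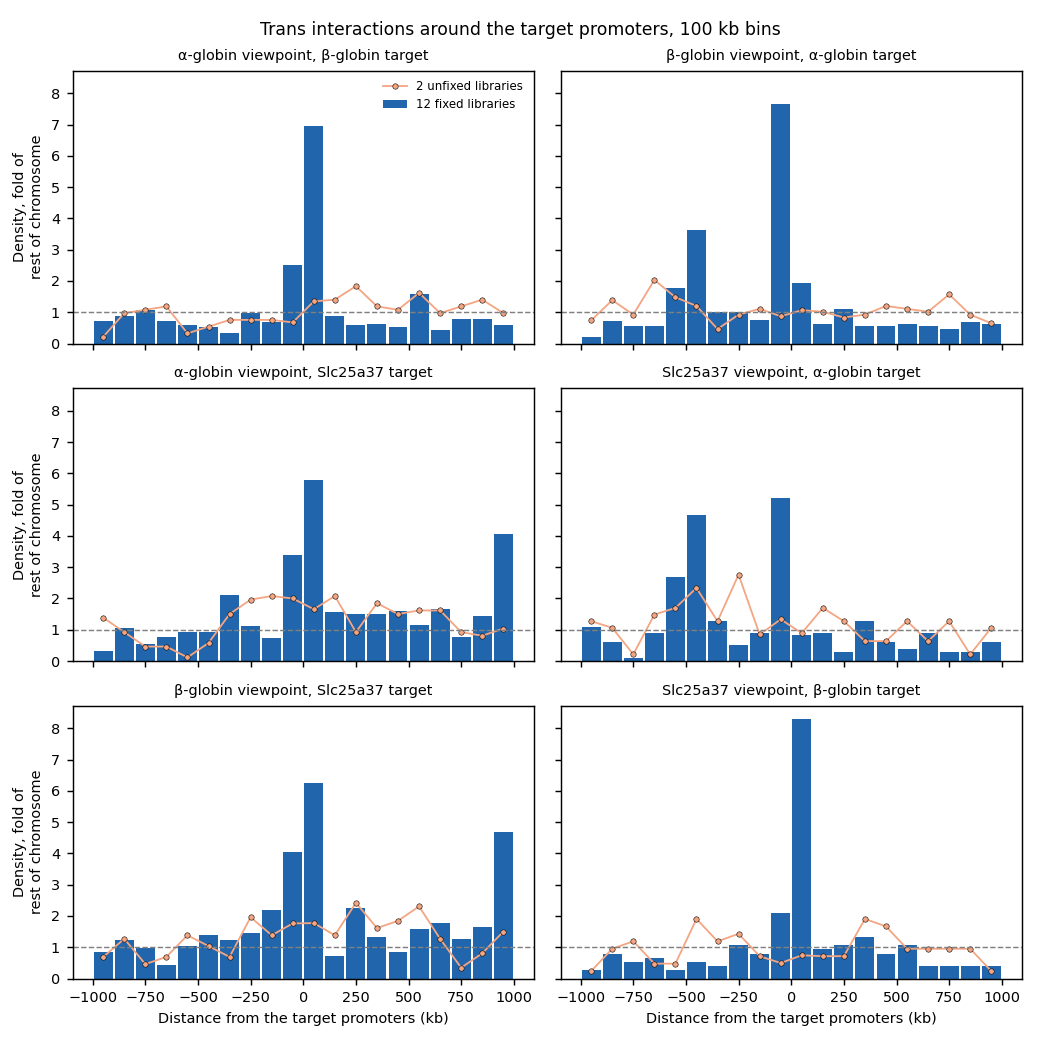
Density of trans interactions in 100 kb bins by distance from the target promoters (kb), as fold of the rest of the chromosome, with bars for the 12 fixed libraries and points for the 2 unfixed libraries. In every panel the highest bar touches the target promoters, and the bar beside it on the other side of the promoters is lower.

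The plot of 100 kb bins also shows dense stretches away from the promoters, within remainders that average near the level of the chromosome at α-globin. From β-globin, the bin 400 to 500 kb below the α-globin promoters held 86 interactions in fixed libraries (3.63-fold), and from Slc25a37 it held 47 (4.68-fold). The bin 900 to 1000 kb above the Slc25a37 promoter held 73 interactions from α-globin (4.05-fold) and 77 from β-globin (4.69-fold). In unfixed libraries these bins stood at 1.20-fold, 2.34-fold, 1.04-fold and 1.50-fold. They were chosen after their values were seen. The genes there are not named, because no mm9 annotation was used here.

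Compared with all 200 kb windows of the same chromosome, the 6 stretches around the target promoters were among the densest in fixed libraries. Around β-globin the stretch ranked 12 of 747 from α-globin and 6 of 747 from Slc25a37. Around α-globin it ranked 3 of 593 from β-globin and 22 of 593 from Slc25a37, and around Slc25a37 9 of 609 from α-globin and 2 of 609 from β-globin. In unfixed libraries the same stretches ranked 379, 569, 328, 215, 29 and 33, in the same order. All 6 were above their chromosome at all 6 fixed concentrations. Of all 200 kb windows, 12.2% did so on chromosome 7 and 9.52% on chromosome 14 from α-globin. From β-globin it was 12.5% on chromosome 11 and 8.54% on chromosome 14, and from Slc25a37 13% on chromosome 11 and 8.84% on chromosome 7.

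**Figure D2:**
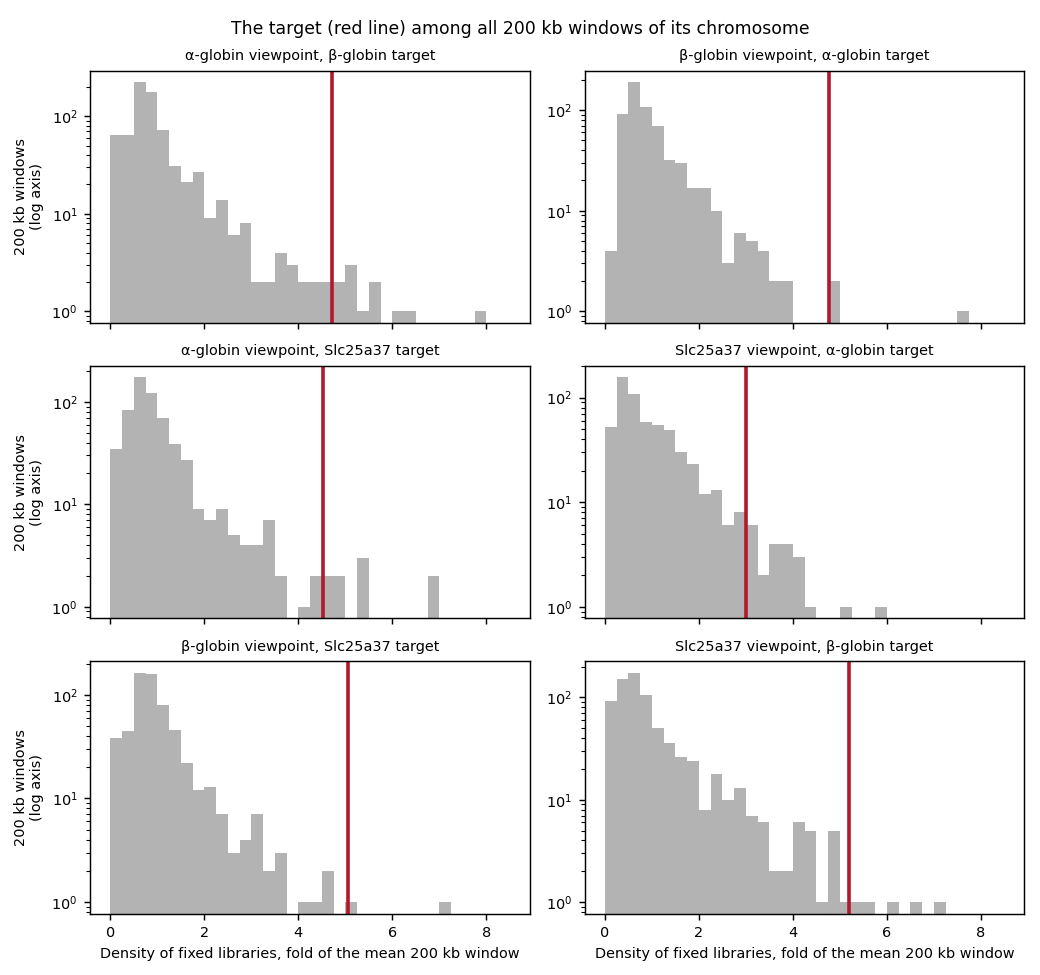
Number of 200 kb windows of the target's chromosome (log axis) by their density in the 12 fixed libraries, as fold of the mean window, with a red line at the window centred on the target promoters. The target lies in the upper tail in all 6 panels, at ranks between 2 and 22.

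The counts of single libraries within 100 kb of the target promoters are given next by formaldehyde concentration. From α-globin at β-globin, the 2 replicates counted 8 and 10 interactions at 0%, 12 and 16 at 0.5%, 12 and 31 at 1%, 26 and 22 at 2%, 6 and 19 at 3%, 13 and 14 at 4%, and 9 and 9 at 5%. Per 100000 trans interactions this came to 7.88, 17.8, 41.4, 47.2, 60.4, 63.6 and 43.7 in the same order. All fixed concentrations lay above the unfixed one.

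From β-globin at α-globin, the replicates counted 12 and 8 interactions at 0%, 19 and 15 at 0.5%, 8 and 30 at 1%, 41 and 23 at 2%, 10 and 15 at 3%, 11 and 15 at 4%, and 15 and 15 at 5%. Per 100000 trans interactions the values were 8.82, 21.4, 36.3, 64.5, 73.9, 74.3 and 96.1. Each step in formaldehyde had a higher value than the one before. At 1% the replicates of both globin viewpoints lay far apart, and replicate 2 was higher.

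From α-globin at Slc25a37, the replicates counted 13 and 18 interactions at 0%, 21 and 15 at 0.5%, 12 and 19 at 1%, 14 and 16 at 2%, 6 and 10 at 3%, 13 and 18 at 4%, and 7 and 11 at 5%. Per 100000 trans interactions these were 13.6, 22.9, 29.9, 29.5, 38.7, 73.1 and 43.7. The unfixed value was the lowest, and the 4% value stood highest.

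From β-globin at Slc25a37, the replicates counted 14 and 16 interactions at 0%, 13 and 8 at 0.5%, 12 and 25 at 1%, 28 and 18 at 2%, 7 and 18 at 3%, 4 and 11 at 4%, and 10 and 11 at 5%. Per 100000 trans interactions the 0% and 0.5% values were alike, 13.2 and 13.2, and the others were 35.4, 46.4, 73.9, 42.9 and 67.2. The summed value first exceeded the unfixed one at 1%, where the replicates lay apart (12 and 25), and neighbouring concentrations were not tested against each other.

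From Slc25a37, the counts were small. At α-globin the replicates counted 7 and 3 interactions at 0%, 5 and 2 at 0.5%, 5 and 8 at 1%, 6 and 10 at 2%, 0 and 2 at 3%, 4 and 6 at 4%, and 4 and 6 at 5%. Per 100000 trans interactions they came to 9.98, 11.6, 30.9, 42.9, 15.2, 75.7 and 77.3. The 3% value was low, and rests on 2 interactions.

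From Slc25a37 at β-globin, the replicates counted 4 and 1 interactions at 0%, 9 and 10 at 0.5%, 3 and 12 at 1%, 11 and 11 at 2%, 0 and 5 at 3%, 2 and 2 at 4%, and 8 and 2 at 5%. Per 100000 trans interactions these were 4.99, 31.6, 35.7, 59.0, 38.0, 30.3 and 77.3. All fixed concentrations exceeded the unfixed one, with no steady order among them.

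**Figure D3:**
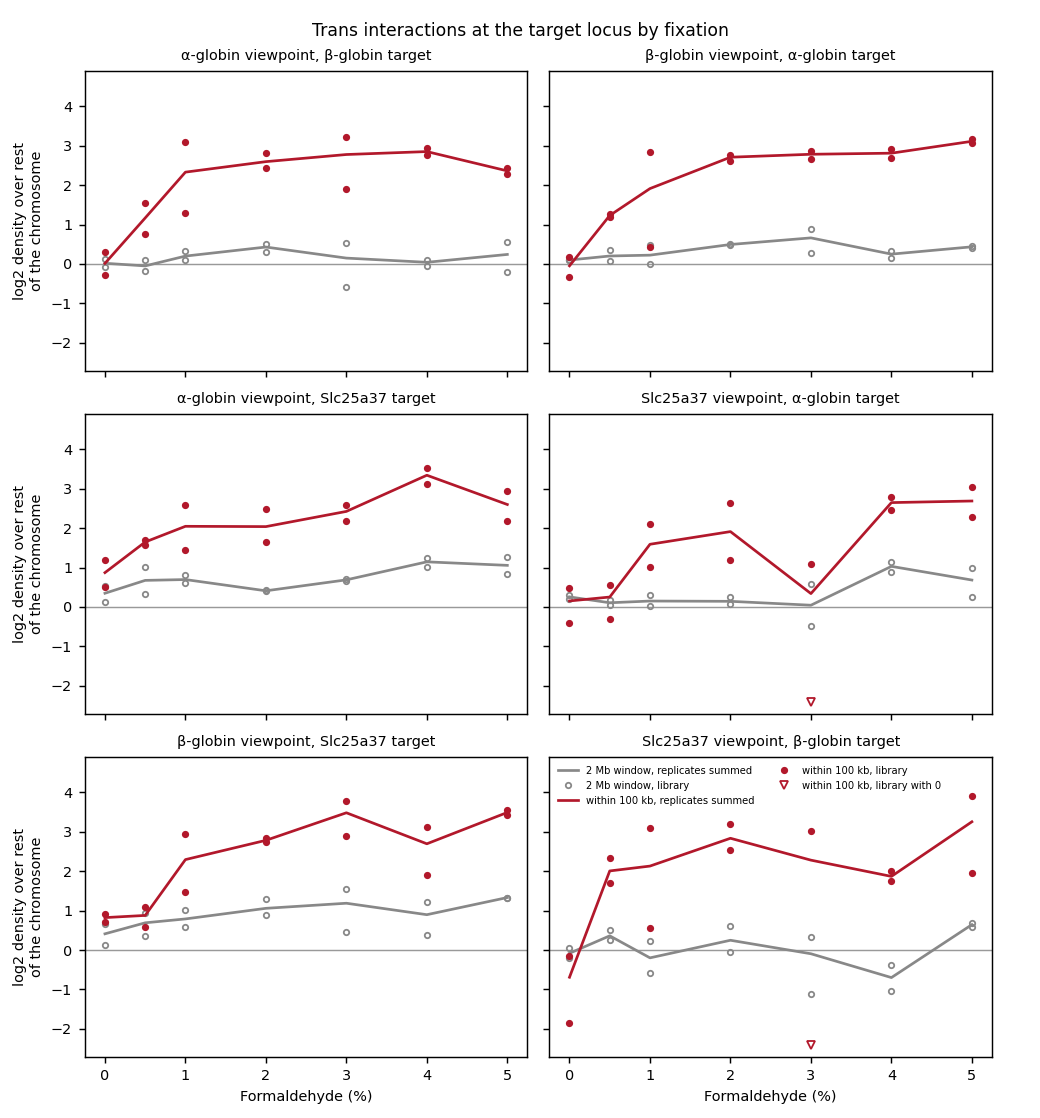
Log2 density of trans interactions over the rest of the chromosome against formaldehyde (%), for the 2 Mb window (grey) and the stretch within 100 kb of the target promoters (red), with points for single libraries and lines for summed replicates. An open triangle at the lower edge marks a library with 0 interactions, which has no finite log2 density. The red lines lie above the grey lines at all fixed concentrations. Both lie near 0 in unfixed libraries at the globin targets, except the red line from Slc25a37 at β-globin, which lies at -0.69 and rests on 5 interactions.

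The stretch within 100 kb was tested against the rest of its own window over the 7 concentrations, with replicates summed and an exact two-sided sign-flip permutation test adjusted over 6 pairs. The mean log2 ratio was 2.52 from α-globin at β-globin, 1.74 from α-globin at Slc25a37, 2.30 from β-globin at α-globin, 1.81 from β-globin at Slc25a37, 1.24 from Slc25a37 at α-globin and 2.56 from Slc25a37 at β-globin. The exact p was 0.015625 for both pairs that target Slc25a37, the smallest that 7 concentrations allow, and 0.03125 for the others, and the adjusted p was 0.03125 for all 6. The ratio was positive at all 6 fixed concentrations in all 6 pairs. This test was not run on other 200 kb stretches, so its p-values show agreement between concentrations and not that the targets stand out. Of all 200 kb windows, 8.54% to 13% lay above their chromosome at all 6 fixed concentrations. Libraries of 0 to 2% and of 3 to 5% formaldehyde have sample numbers from separate ranges and may be batches, which no source used here states. Within the former, the mean ratios were 1.75, 1.33, 1.50, 1.15, 0.98 and 2.01, and within the latter 3.54, 2.29, 3.37, 2.69, 1.58 and 3.30, in the order given above. Neither set can give an exact p below 0.125. Both calls from Slc25a37 were lost when either technical replicate was left out. At α-globin the ratio was 1.67 without replicate 1 (adjusted exact p = 0.0625) and 0.41 without replicate 2 (0.625), and at β-globin it was 2.37 (0.05625) and 1.86 (0.09375). In replicate 1 at 3%, both targets held 0 interactions within 100 kb. Without replicate 2, the log2 ratio at 3% was therefore set by the pseudocount given below, which lowered both means. The call at α-globin was also lost with 50 kb in place of 100 kb (0.0625). Counted per listed fragment, the adjusted exact p of the 6 pairs was 0.319 to 0.484 (ratios 0.31 to 0.83). Only fragments with at least 1 interaction are listed, so that denominator itself grows with the number of contacts.

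The slope of the log2 density on formaldehyde was tested by exact permutation of the 7 concentrations, with adjustment over the 6 pairs. Within 100 kb, the slope passed at 3 pairs. It was 0.36 per percent from α-globin at Slc25a37 (adjusted p = 0.0315), 0.52 from β-globin at α-globin (0.0315) and 0.50 from β-globin at Slc25a37 (0.0377). It did not pass from α-globin at β-globin (0.40, 0.0857), or from Slc25a37 at α-globin (0.45, 0.0857) and at β-globin (0.43, 0.0938). This window size was chosen after the values were seen. Over the 6 fixed concentrations alone, the slopes were 0.15 to 0.43 and the adjusted exact p was 0.0833 to 0.326, so that no pair passed. Within 0 to 2% the slopes ran from 0.53 to 1.51, and within 3 to 5% from -0.21 to 1.17. The slope was larger within 0 to 2% than within 3 to 5% at all pairs but Slc25a37 to α-globin, a difference that was not tested.

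Over the whole 2 Mb windows the slope of the density relative to the chromosome passed at 0 pairs. It was 0.03 and 0.13 per percent from α-globin at β-globin and Slc25a37, 0.06 and 0.14 from β-globin at α-globin and Slc25a37, and 0.13 and 0.01 from Slc25a37 at α-globin and β-globin. The adjusted exact p was 0.586, 0.0982, 0.282, 0.0982, 0.185 and 0.924. At an unadjusted exact p under 0.05 both pairs that target Slc25a37 passed (0.0327 from α-globin and 0.0187 from β-globin).

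The share of all trans interactions that fell in a window was also fitted across all 2 Mb windows of the other chromosomes, with edgeR and the sum of replicates at each concentration. Of the 6 members, 4 rose with formaldehyde. The slope was 0.14 per percent from α-globin at β-globin (edgeR adjusted p = 0.0410), 0.19 from α-globin at Slc25a37 (0.0130), 0.17 from β-globin at α-globin (0.0468) and 0.29 from Slc25a37 at α-globin (0.00987). From β-globin at Slc25a37 it was 0.13 (0.100) and from Slc25a37 at β-globin 0.12 (0.188). Many other windows behaved in this way. Of 1235 windows from α-globin, 35.5% were called and 19.4% were called rising. Of 1222 from β-globin, 18.1% and 11.5% were, and of 1220 from Slc25a37, 27.9% and 14.3%. Windows with a larger slope than the member made up 21.2%, 13.6%, 11.5%, 16.5%, 5.57% and 27.5% of the windows tested, in the order α-globin to β-globin, α-globin to Slc25a37, β-globin to α-globin, β-globin to Slc25a37, Slc25a37 to α-globin and Slc25a37 to β-globin. Without replicate 1 none of the 4 calls was kept (edgeR adjusted p 0.111 to 0.481), and the number of windows called from the 3 viewpoints was 5, 3 and 44, against 439, 221 and 340. Without replicate 2, or without the unfixed concentration, the call from Slc25a37 at α-globin alone was left (0.0176 and 0.0426). That call was lost in turn without 0.5% (0.0642) and without 4% formaldehyde (0.0627). With single concentrations left out, the calls from α-globin at β-globin, from α-globin at Slc25a37 and from β-globin at α-globin were lost in 4, 2 and 6 of 7 cases. Without scaling factors the slopes of the members fell to between 0.04 and 0.22, the median of all windows moved to -0.11 for Slc25a37, and 140 windows from α-globin rose and 370 fell, against 240 and 199. From β-globin this split was 96 and 168, against 141 and 80, and from Slc25a37 118 and 339, against 174 and 166.

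In windows of 200 kb the same fit called 0.0485% of windows from α-globin, 0.0393% from β-globin and 3.46% from Slc25a37, and none of the 6 stretches around the promoters was among them (edgeR adjusted p 0.139 to 0.507). Their slopes were 0.40 and 0.36 from α-globin at β-globin and Slc25a37, 0.53 and 0.42 from β-globin at α-globin and Slc25a37, and 0.31 and 0.17 from Slc25a37 at α-globin and β-globin. Windows with a larger slope than the stretch made up 1.97% and 3.09% of 10317 from α-globin, 0.167% and 1.12% of 10168 from β-globin, and 3.29% and 17.2% of 1823 from Slc25a37, in the same order. With fixed against unfixed as the term, edgeR called 0% of windows from each viewpoint, and 666, 552 and 239 windows had an unadjusted p under 0.05. The log2 difference in trans share was then 2.59 from α-globin at β-globin (edgeR adjusted p = 0.572) and 1.59 at Slc25a37 (0.787). It was 2.76 from β-globin at α-globin (0.749) and 1.78 at Slc25a37 (0.884), and 0.74 from Slc25a37 at α-globin (0.616) and 2.03 at β-globin (0.149). Unfixed material is a single concentration in this fit. From Slc25a37 only 1823 windows had a mean count of at least 5, and the 2 stretches passed this filter through their fixed libraries.

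Each target was seen from both other viewpoints, and the 2 views of a 2 Mb window did not differ beyond the spread between concentrations. The log2 density relative to the chromosome differed by 0.12 at β-globin (α-globin minus Slc25a37 viewpoint), by -0.0072 at α-globin (β-globin minus Slc25a37) and by -0.19 at Slc25a37 (α-globin minus β-globin). The adjusted exact p was 0.703, 1 and 0.422, and single concentrations differed by -0.41 to 0.74, by -0.78 to 0.62 and by -0.65 to 0.25. Within 100 kb, the α-globin target was denser from β-globin than from Slc25a37 at 6 of 7 concentrations (mean log2 difference 0.70, exact p = 0.0469, adjusted 0.141).

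The 2 directions of a pair of loci differed over the 2 Mb windows, at all 7 concentrations in each of the 3 pairs. α-globin to β-globin was lower than the reverse by a log2 difference of -0.19. α-globin to Slc25a37 was higher than the reverse by 0.37 and β-globin to Slc25a37 by 0.88. The exact p was 0.015625 for each, the smallest that 7 concentrations allow, before and after adjustment over 3 pairs. Against all other trans chromosomes in place of the target's own, the second difference turned to -0.28 (adjusted exact p = 0.0469), and with 500 kb each side it was 0.25 (0.234). Per listed fragment no difference passed (0.0017, 0.057 and 0.33, with adjusted exact p of 1, 0.680 and 0.328). Without replicate 2 the first (-0.18, 0.1875) and the second (0.22, 0.09375) did not pass. Within 100 kb the 3 differences were -0.059, 0.77 and 0.39 with adjusted exact p of 0.641, 0.0938 and 0.375. The 2 directions have different chromosomes as their reference.

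Within 100 kb, the interactions with the globin targets lay mostly on 1 side of the promoters. At α-globin this was the side of lower coordinates, where the α-globin enhancers lie upstream of genes on the plus strand. At β-globin it was the side of higher coordinates, upstream of genes on the minus strand, where the locus control region, the group of β-globin enhancers, lies. From β-globin at α-globin, the fixed libraries held 173 interactions on the lower side and 44 on the higher side. Single concentrations had 19 and 15 at 0.5%, 27 and 11 at 1%, 53 and 11 at 2%, 24 and 1 at 3%, 21 and 5 at 4%, and 29 and 1 at 5%, against 9 and 11 in unfixed cells. The enhancer side thus held more at every fixed concentration and not in unfixed cells.

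From Slc25a37 at α-globin, the fixed libraries held 50 interactions on the lower side and 8 on the higher side, and unfixed ones 6 and 4. At 0.5% the 2 sides had 3 and 4, and at every other fixed concentration the lower side held more. At β-globin, the side of the locus control region held 139 interactions from α-globin and 60 from Slc25a37 in fixed libraries, and the opposite side 50 and 15. The unfixed libraries had 12 and 6 from α-globin, and 3 and 2 from Slc25a37. Around Slc25a37 the sides were less unequal, with 102 on the higher and 60 on the lower side from α-globin, and 100 and 65 from β-globin.

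The mean log2 ratio of the higher over the lower side was tested over 7 concentrations by exact sign flips, a comparison added after the values were seen. It was 1.36 from α-globin and 1.46 from Slc25a37 at β-globin, and -1.97 from β-globin and -2.14 from Slc25a37 at α-globin, with an adjusted exact p of 0.0469 for each. At Slc25a37 it was 0.68 from α-globin (0.0750) and 0.45 from β-globin (0.234). The 4 ratios at the globin targets kept their direction over the fixed concentrations alone (1.42, 1.62, -2.35 and -2.41), where the adjusted exact p was 0.0750. None of the 4 passed when distinct fragments were counted (0.0703 for each) or without replicate 2 (0.117 to 0.150). Without replicate 1 the ratios from α-globin at β-globin and from Slc25a37 at α-globin did not pass (0.0938 for both). All 4 kept their direction also within 0 to 2% (1.26, 1.69, -0.88 and -2.07) and within 3 to 5% (1.48, 1.16, -3.43 and -2.25), where no exact p can fall below 0.125.

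In bins of 10 kb, the fullest trans bin was that of the target's own cis maximum in 1 of the 6 pairs, α-globin to β-globin. From α-globin at β-globin, the fullest bin was 40 to 50 kb above the centre of the promoters, with 44 interactions in fixed libraries and 0 in unfixed ones, and the cis profile of the β-globin viewpoint had its maximum of 36709 interactions in that bin. From β-globin at Slc25a37 the fullest bins were 20 to 30 kb (34 interactions) and 30 to 40 kb (28) above the promoter, and from α-globin the bin of 30 to 40 kb (32). The cis profile of Slc25a37 had its maximum of 19439 interactions in the 10 kb below the promoter and a further peak of 18541 at 30 to 40 kb, and held 10045 at 20 to 30 kb. From Slc25a37 at β-globin the fullest bin was 20 to 30 kb above the promoters (11 interactions), where the cis profile held 14392. At α-globin the fullest bin was -30 to -20 kb from both viewpoints, with 39 interactions from β-globin and 12 from Slc25a37, while the cis maximum of 59423 lay at -20 to -10 kb. Over the 20 bins of each target, Pearson's r between trans interactions and the target's own cis interactions was 0.74 to 0.91 and Spearman's rho 0.63 to 0.91, as a description over bins that are neighbours and share libraries.

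**Figure D4:**
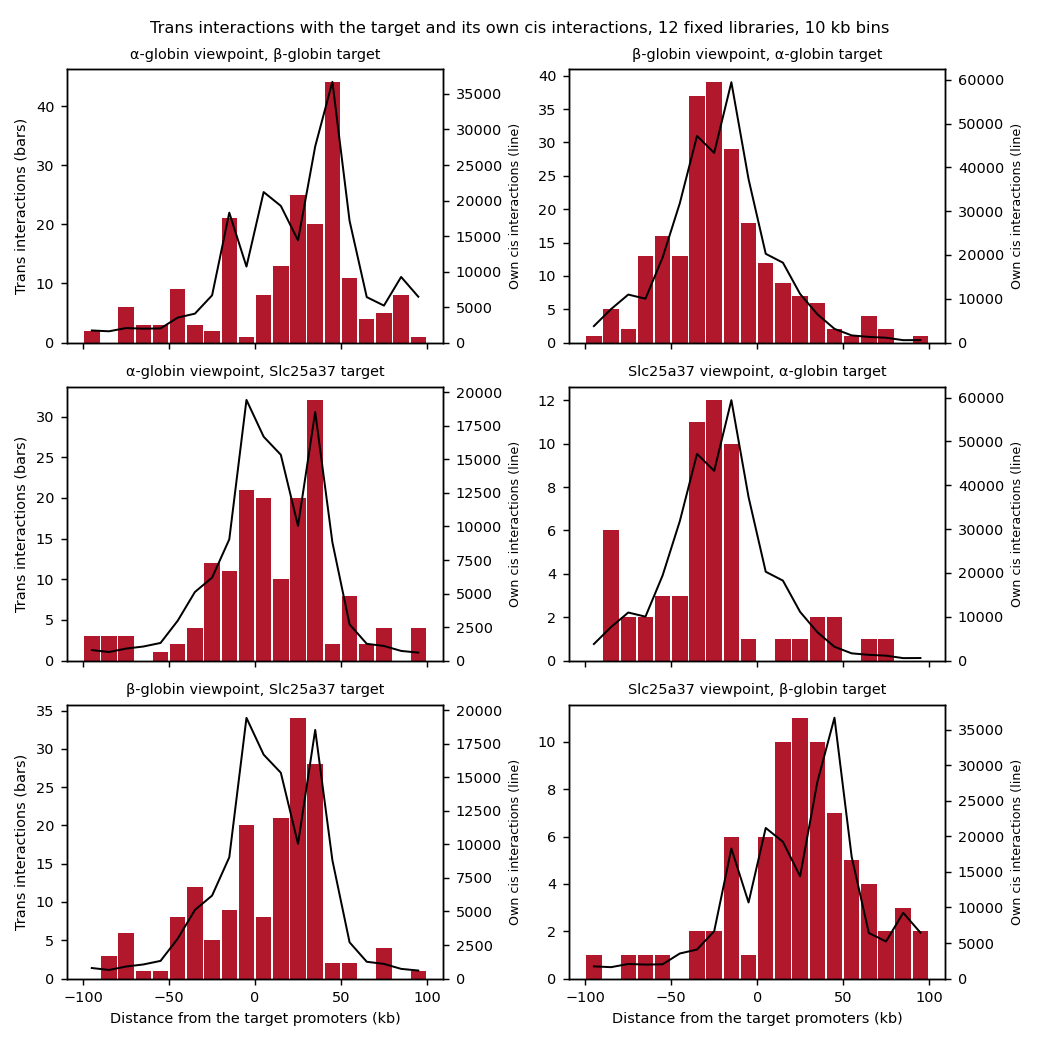
Trans interactions (bars, left axis) in 10 kb bins around the target promoters and the target's own cis interactions (line, right axis), both in the 12 fixed libraries, by distance (kb) from the promoters, with the captured fragments and 1 kb around them left out. Bars and lines are displaced to the same side of the promoters at both globin targets.

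The target's own cis interactions come from the same libraries and rose far more from unfixed to fixed cells than the trans ones. Within 100 kb, own cis interactions at β-globin numbered 487 in unfixed libraries and 14872 to 74788 at the fixed concentrations. At α-globin they numbered 272 and 19076 to 94123, and at Slc25a37 119 and 7923 to 33438. The trans interactions came to 4.15 to 17.8 per 10000 own cis interactions of the target from β-globin at α-globin in fixed libraries, and to 735 in unfixed ones. For the other pairs this number in fixed libraries was between 0.376 and 45.4. Whether joints made after lysis or during amplification contribute to the trans counts was not tested.

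Single fragments held few interactions, and no fragment carried a window. Of 412 fragments listed in the β-globin window from α-globin, 229 held 1 interaction in the 14 libraries together. The fullest were chr7:110991221-110991652, with 8 interactions in 6 libraries, and chr7:111007508-111007928 and chr7:111013296-111014139, with 6 each, at 21.4, 37.7 and 43.7 kb above the centre of the promoters. From Slc25a37 the fullest in this window were chr7:110981990-110983085 (4 interactions), the same chr7:110991221-110991652 (3) and its neighbour chr7:110991653-110992180 (3). All of them lie on the side of the locus control region.

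At α-globin the fullest fragments from β-globin were chr11:32149641-32149927, chr11:32165529-32165889 and chr11:32166872-32167109, with 6 interactions each and 0 in unfixed libraries, at -40.2, -24.3 and -23.0 kb. From Slc25a37 they were chr11:32170702-32172142 (5 interactions), chr11:32150623-32151061 (3) and chr11:32175857-32176030 (3), at -18.6, -39.2 and -14.1 kb. All 6 lie on the enhancer side.

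In the Slc25a37 window the fullest from α-globin were chr14:69587263-69587418, chr14:69912856-69912963 and chr14:69925727-69927899, with 5 interactions each, at -315.7, 9.9 and 23.8 kb. From β-globin they were chr14:69931124-69932628 (7 interactions), chr14:70867103-70867649 (6) and chr14:69923659-69924084 (5, of them 2 in unfixed libraries), at 28.9, 964.4 and 20.9 kb. In this window 2 of the 6 fullest fragments lay outside the 100 kb around the promoter. In all pairs but Slc25a37 to α-globin, fragments not named here tied with the third. Single fragments are too sparse for a comparison between concentrations.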

How the data were processed

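The authors mapped the reads to mm9 (Trim Galore and Bowtie are named in the submitters' processing notes, versions not given in the sources used here), removed duplicates and counted unique interactions of each viewpoint per DpnII fragment. They deposited raw counts, pooled over both promoters of a globin pair. The 3 fixation tables were used and the other 4 were not used here. Members, lists and window sizes were chosen with earlier results of these data known.

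Technical replicates were summed per concentration (7 values). Fragments over 100 kb were left out, as were the captured promoters with 1 kb each side. Densities are interactions per Mb of span relative to the rest of the chromosome, with a pseudocount of 1 interaction spread over both spans in proportion to length. Contrasts were tested by exact sign flips (128) and slopes by exact permutation (5040), two-sided, with Benjamini-Hochberg adjustment, at 0.05. Shares of trans interactions were fitted by edgeR's quasi-likelihood method (edgeR 4.0.16, R 4.3.3, TMM factors, mean count of at least 10 in 2 Mb windows or 5 in 200 kb windows), with DESeq2 1.42.0 as an alternative. Intervals of ratios are 95% exact binomial (Clopper-Pearson). Named fragments are the 3 with the most interactions per window. Python 3.11.15, NumPy 2.4.6, pandas 2.3.3, SciPy 1.17.1 and matplotlib 3.10.9 were used. The tests were first tested on simulated data. Duplicate removal decides how many interactions count as unique. The number of DpnII sites per window was not available as a denominator, since no mm9 sequence was used.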

Additional observations from a re-analysis of the deposited data

How the results depend on the processing

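Depth limits the Slc25a37 viewpoint most, with as few as 5396 trans interactions in a library, and no pair of captured promoters is measurable. Pairs are given below as viewpoint to target. Values are log2 unless said otherwise, and the cause of a change was not tested. By sign flips, a set of 4 or 3 concentrations cannot give an exact p below 0.125 or 0.25. Those limits do not apply to slopes. Same-numbered replicates did not deviate together (median r between -0.0069 and 0.0095 over 21 pairs of concentrations at each viewpoint), so the numbers were taken as names. With a replicate block over 14 libraries, edgeR called 477, 291 and 358 windows from α-globin, β-globin and Slc25a37, against 486, 301 and 375 without it, and the slope of the 2 Mb density from Slc25a37 to β-globin was -0.0051.

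The excess of the 2 Mb windows over the chromosome kept its direction in the 48 alternatives except from Slc25a37 to β-globin without replicate 2 (-0.20, and 0.21 without replicate 1, against 0.043 as reported). It moved with a window of 100 kb each side (α-globin to β-globin 2.34, α-globin to Slc25a37 2.35, β-globin to α-globin 2.42, β-globin to Slc25a37 2.60, Slc25a37 to α-globin 1.57, Slc25a37 to β-globin 2.39), with a window of 500 kb each side (α-globin to Slc25a37 1.06, β-globin to α-globin 0.99, Slc25a37 to α-globin 0.81, Slc25a37 to β-globin 0.60), per listed fragment (α-globin to Slc25a37 0.21, β-globin to Slc25a37 0.41) and against all other trans chromosomes (β-globin to α-globin 0.77, Slc25a37 to α-globin 0.92). Counts at the captured fragments were 0 at all 6 targets with no margin.

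The slope of the 2 Mb density reversed from Slc25a37 to β-globin over fixed concentrations alone (-0.0036), from α-globin to Slc25a37 (-0.0041) and Slc25a37 to α-globin (-0.038) within 0 to 2%, and from β-globin to α-globin within 3 to 5% (-0.11). It passed from Slc25a37 to α-globin against all trans chromosomes (0.22), from β-globin to α-globin and to Slc25a37 with 500 kb each side (0.22 and 0.23), and within 100 kb as reported (0.36, 0.52 and 0.50). With single replicates left out it ran from -0.041 to 0.060 (α-globin to β-globin) and from -0.065 to 0.055 (Slc25a37 to β-globin).

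The α-globin target seen from β-globin minus Slc25a37 changed sign with all fragments (0.031), per listed fragment (0.040), with 500 kb each side (0.078), over fixed concentrations (0.018), within 0 to 2% (0.090) and within 100 kb (0.70), and without replicates ran from -0.19 to 0.18. The β-globin target changed sign with 500 kb each side (-0.055).

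For reciprocal pairs in the order α-globin with β-globin, α-globin with Slc25a37 and β-globin with Slc25a37, values per listed fragment were 0.0017, 0.057 and 0.33, within 0 to 2% -0.11, 0.37 and 0.65, within 3 to 5% -0.30, 0.38 and 1.19, and within 100 kb -0.059, 0.77 and 0.39. The second was 0.25 with 500 kb each side and -0.28 against all trans chromosomes. Without replicates the first ran from -0.25 to -0.18 and the second from 0.22 to 0.53.

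The 100 kb against the rest of the window, in the order α-globin to β-globin, α-globin to Slc25a37, β-globin to α-globin, β-globin to Slc25a37, Slc25a37 to α-globin and Slc25a37 to β-globin, was 0.83, 0.50, 0.74, 0.51, 0.31 and 0.71 per listed fragment, 1.75, 1.33, 1.50, 1.15, 0.98 and 2.01 within 0 to 2%, and 3.54, 2.29, 3.37, 2.69, 1.58 and 3.30 within 3 to 5%. With 50 kb in place of 100 kb the fifth was 1.55. Without replicates the fifth ran from 0.41 to 1.67 and the last from 1.86 to 2.37, and both lost their call without either replicate.

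The calls of the sides ended in each of the following sets, except that 2 held without replicate 1. The sides, in the order α-globin to β-globin, β-globin to α-globin, Slc25a37 to α-globin and Slc25a37 to β-globin, were 1.22, -1.82, -2.02 and 1.39 for distinct fragments, 1.42, -2.35, -2.41 and 1.62 over fixed concentrations, 1.26, -0.88, -2.07 and 1.69 within 0 to 2%, and 1.48, -3.43, -2.25 and 1.16 within 3 to 5%. Without replicates they ran from 1.35 to 1.82, -2.30 to -1.45, -1.74 to -1.72 and 0.93 to 1.81.

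The slopes called by edgeR (α-globin to β-globin, α-globin to Slc25a37, β-globin to α-globin, Slc25a37 to α-globin) kept their direction and lost the call for fixed against unfixed (0.48, 0.64, 0.56 and 0.73), with 0 to 2% and 3 to 5% as blocks (0.27, 0.16, 0.18 and 0.30), and in 200 kb windows as a slope (0.40, 0.36, 0.53 and 0.31) or fixed against unfixed (2.59, 1.59, 2.76 and 0.74). Without TMM factors the first 3 did so (0.070, 0.12 and 0.13), and β-globin to α-globin with no filter on low counts (0.17). DESeq2 called β-globin to Slc25a37 (0.15) and gave no adjusted p for Slc25a37 to β-globin. With a replicate or a concentration left out the called slopes ran from 0.086 to 0.17, 0.15 to 0.21, 0.15 to 0.20 and 0.17 to 0.33. The number of windows called from α-globin, β-globin and Slc25a37 was 439, 221 and 340, and ran from 5 to 459, 3 to 256 and 36 to 346 with 1 left out. It was 4, 0 and 0 for fixed against unfixed (233, 123 and 211 at an unadjusted p under 0.05), and 72, 3 and 36 with 0 to 2% and 3 to 5% as blocks. DESeq2 called 437, 180 and 182, of 1235, 369 and 369 windows it gave an adjusted p. In 200 kb windows 5, 4 and 63 were called as a slope.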
